A study of Mus musculus with 24 samples.

Results

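The hearts described here came from the 12 control mice of a study of experimental autoimmune myocarditis (EAM), which are 12 of the 24 mice sequenced and were taken by their labels. All were wild type male BALB/cAnNCrl mice of 8 to 10 weeks at the first injection. The mice received an emulsion of PBS in supplemented complete Freund's adjuvant on days 0 and 7 and pertussis toxin on day 0, that is every injection of the EAM protocol except the α-myosin heavy chain peptide. Hearts were taken on day 10 (D10), 15 (D15) or 21 (D21), from 4 mice on each day, and RNA was made from a portion of the heart. The control hearts are therefore hearts of mice that had received adjuvants and toxin, and hearts of uninjected mice were not analysed here. The part of the heart that was taken is not stated in the sources used here.

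The adult heart contracts without pause, and its muscle cells hold tightly packed myofilaments, a calcium store that is emptied and refilled at each beat, and a large volume of mitochondria fuelled mainly by fatty acids. Beside the ventricular muscle cells, the organ holds atrial muscle cells with their own myosin light chains and hormones, and endothelial cells, fibroblasts, mural cells, nerve fibres and resident and passing blood cells. RNA from a piece of tissue averages over all of them. In such bulk samples fewer cells of a type and less RNA per cell cannot be told apart.

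The 12 libraries held 16578239 to 22859202 reads counted on genes, and 19535 to 20721 genes had at least 1 read in a heart. Levels are given in CPM, a gene's share of all gene counts of a heart in parts per 1000000, and 3 reads amounted to 0.131 to 0.181 CPM. Hearts of the same day differed more than counting alone allows, with a chi-square per degree of freedom of at least 6.45 in each pair, so none was a repeat of another. The defining markers of the labelled tissue were abundant. The 10 cardiomyocyte markers summed to 34299 to 38999.9 CPM and the 4 Y-linked genes to 283 to 319 CPM, while markers of neighbouring organs were near 0, with the 7 lung genes summing to 0.0501 to 0.620 CPM, the 8 thymus genes to 0.947 to 1.72 CPM, and the lung gene Cldn18 and the thymus genes Rag2 and Foxn1 at 0 in all 12 hearts. D15 replicate 4 stood apart from the other D15 hearts in atrial genes, and the counts of variable genes and of genes that differed between days are also given without it.

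The 30 most abundant genes were mostly those of the beating muscle and its mitochondria. They held 13.96% of all counts (13.0% to 15.5% in single hearts), and 24 of them were among the 30 most abundant in every one of the 12 hearts. The mitochondrial gene mt-Co1, which encodes a core subunit of cytochrome c oxidase, had the most reads, with 12544 ± 1225 CPM (SD, n = 12). Myh6, the gene of the adult α-myosin heavy chain, followed with 11362 ± 1085 CPM, and Atp2a2, whose product SERCA2 pumps calcium back into its store, with 10082 ± 391 CPM. Across single hearts these genes ranged over 10968 to 15079 CPM, 9412 to 12959 CPM and 9457 to 10871 CPM.

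Next came 6 more genes of the mitochondrial genome. The NADH dehydrogenase subunits mt-Nd5, mt-Nd1, mt-Nd2 and mt-Nd4 had means of 9768, 7075, 6583 and 5216 CPM, cytochrome b (mt-Cytb) had 7959 CPM and the large ribosomal RNA mt-Rnr2 had 6016 CPM. Pln, the gene of phospholamban, which restrains SERCA2, had 4828 ± 341 CPM. Myoglobin (Mb), which binds oxygen, had 3961 ± 302 CPM, and lipoprotein lipase (Lpl), which frees fatty acids from circulating lipid, 3884 ± 449 CPM. The sarcomere genes Tpm1, Tnnt2, Actc1, Mybpc3 and Ttn lay at 3528, 3518, 3428, 3298 and 3252 CPM, and the ATP synthase genes Atp5b and Atp5a1 at 3749 and 3662 CPM. Further down the 30 were the mitochondrial carrier Slc25a4 (2776 CPM), the Krebs cycle gene Ogdh (2613 CPM), the glycolytic gene Aldoa (2168 CPM), the fatty acid transporter Cd36 (2029 CPM), the ventricular light chain Myl2 (2001 CPM) and the small heat shock protein gene Hspb7 (1931 CPM).

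**Figure D1:**
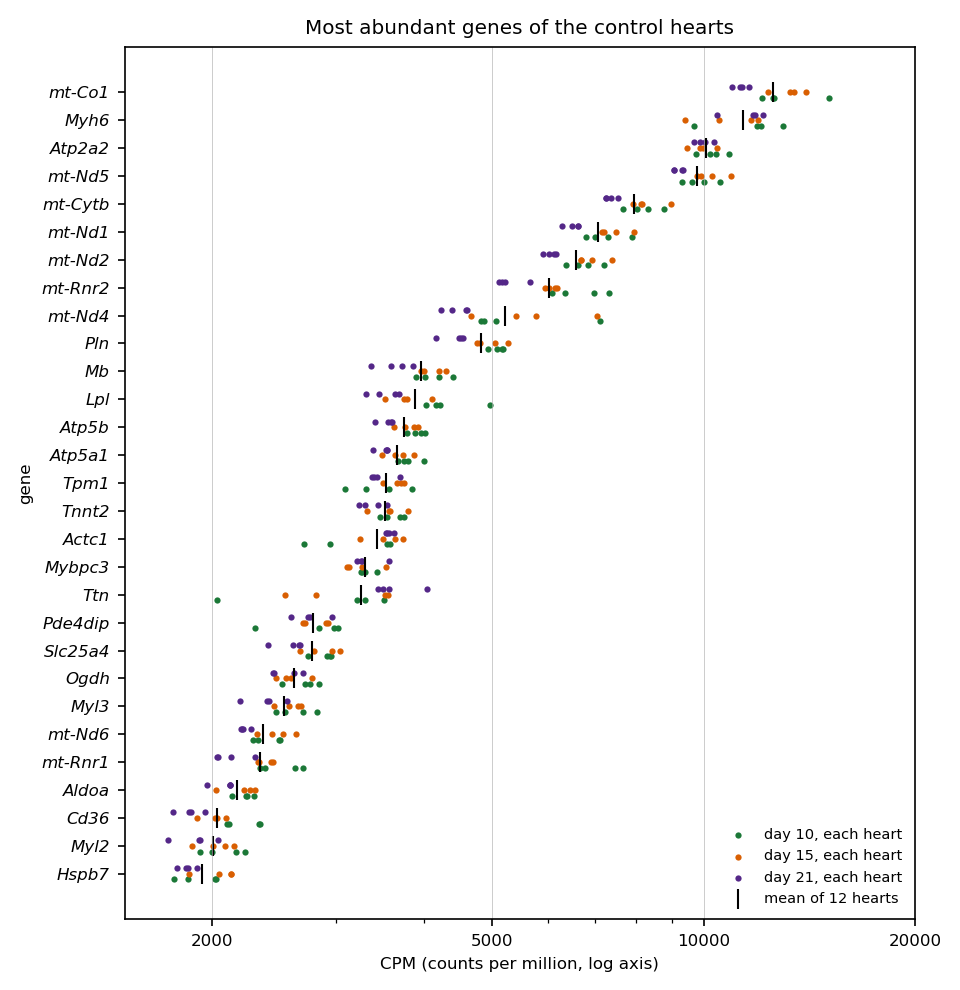
Abundance of the genes with the highest mean, with 1 of the 30 left out. The horizontal axis gives CPM on a log scale and each point is 1 of the 12 control hearts, coloured by day. mt-Co1, Myh6 and Atp2a2 lead, and most genes keep to a narrow range, with Ttn (2032 to 4040.0 CPM) and mt-Nd4 (4229.6 to 7125 CPM) among the wider ones.

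A long transcript collects more reads than a short one at the same abundance, so genes were also ordered by CPM per kilobase of exon. On that scale the mitochondrial genes filled the first 8 places, led by mt-Co1 with 8119 CPM per kb, mt-Nd1 with 7393 and mt-Cytb with 6957. Myoglobin was the highest nuclear gene with 2655 CPM per kb. It was followed by cardiac α-actin (Actc1) with 2118, Pln with 1750.0, Myh6 with 1689 and the fatty acid binding protein gene Fabp3 with 1687 CPM per kb. Ttn, the gene of the giant spring protein titin, fell from the 30 most abundant to place 1861 with 27.8 CPM per kb. The annotated short RNA Gm23935 also reached 2079.8 CPM per kb, from 119 CPM on 57 bases.

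The counts were not held by a few genes. In the mean heart 766 genes (SD 47.3, from 663 to 829) made up 50% of the counts, and the 10, 100 and 1000 most abundant genes of a heart held 8.14%, 23.6% and 54.7%. At D10 736 ± 50.4 genes were needed for 50%, at D15 750.5 ± 31.0 and at D21 812.5 ± 17.3 (SD, n = 4 each). Per kilobase the same share was held by 319 genes, and without the mitochondrial genome by 902. Nuclear protein-coding genes took 92.2% of counts (90.9% to 93.1%), pseudogenes 0.798% and long non-coding RNAs 0.614%.

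The 20 functional classes held 1560 genes and 37.0% to 40.8% of the counts of a heart. The shares are of reads counted on a single gene. Levels of 6 mitochondrial genes and of Gapdh are uncertain, as described below, and so is the place of the mitochondrial share. The contractile apparatus took the largest share of counts, 7.47% ± 0.21 (SD, n = 12), with Myh6, Tpm1, Tnnt2, Actc1 and Mybpc3 in front. Mitochondrially encoded genes took 6.26% ± 0.70 and the nuclear-encoded genes of the respiratory chain and ATP synthase 4.04% ± 0.20. Calcium handling and ion transport, with Atp2a2, Pln and the ryanodine receptor gene Ryr2 (1820.1 CPM), took 3.21% ± 0.075. Per kilobase the mitochondrial genome moved to the front with 18.0% (15.9% to 22.1%), the nuclear respiratory chain took 6.74% and the contractile apparatus 6.64%.

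Among the fuel pathways, the Krebs cycle and pyruvate dehydrogenase took 2.85% of counts, fatty acid uptake and β-oxidation 2.71% and glycolysis with glycogen and lactate metabolism 1.85%. Lpl, Cd36, the trifunctional protein genes Hadha (1557 CPM) and Hadhb (1269.8 CPM) and Fabp3 (1388 CPM) led the fatty acid class. Of the other classes, oxygen binding, creatine kinase and nucleotide transfer took 1.505%, translation factors 1.72%, cytosolic ribosomal proteins 1.24%, mitochondrial ribosomal proteins 0.478% and chaperones 1.32%. The proteasome and ubiquitin class was the steadiest for its size, with 1.38% to 1.43% in every heart and a within-day coefficient of variation of 0.82%.

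Further classes were those of connective tissue, blood and immune cells. The extracellular matrix took 1.43% (1.15% to 1.71%), with decorin (Dcn) at 978 ± 149 CPM and the collagen genes Col4a1 at 883 ± 168 CPM and Col3a1 at 721 ± 241 CPM in front. Genes of MHC and antigen presentation took 0.142% (0.106% to 0.207%), haemoglobin genes 0.0199% and immunoglobulin genes 0.0026%. Near-identical copies in the MHC, haemoglobin and ribosomal protein families can share reads, and reads that mapped to several places were kept apart. The split between their members and the class totals are therefore uncertain. The summed level of 10 leucocyte genes was 170.2 to 447 CPM, that of 12 macrophage and monocyte genes 637 to 1506 CPM, and that of 10 T cell genes 13.5 to 19.8 CPM, in which Cd28 had 12 CPM and Cd3e 0.515 CPM. D10 replicate 1 held the highest leucocyte and macrophage sums.

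**Figure D2:**
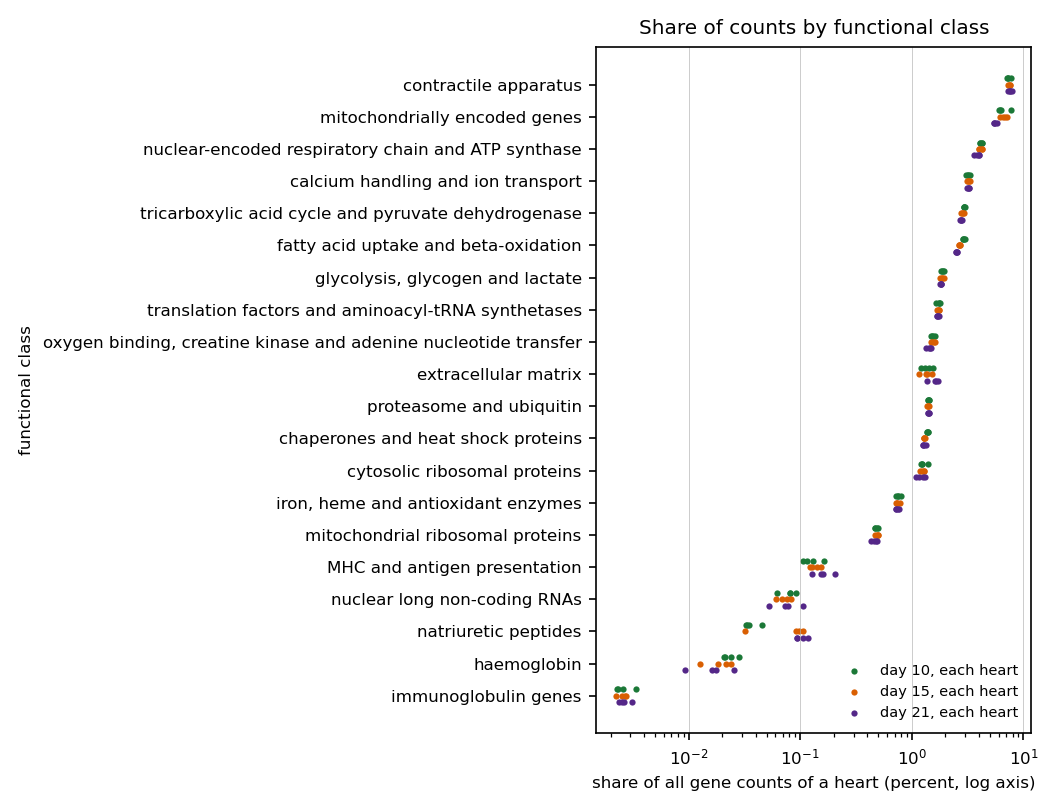
Share of a heart's gene counts taken by each of 20 functional classes, in percent on a log axis. Each point is 1 control heart, coloured by day. The contractile apparatus (7.12% to 7.82%) and mitochondrial genes (5.45% to 7.69%) take most, and the natriuretic peptides spread widely, with low values at D10.

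Class shares were compared between days with an exact permutation test of the variance between days over all assignments of hearts to days, with Benjamini-Hochberg adjustment over the 20 classes. Fatty acid uptake and β-oxidation fell, from 2.92% at D10 to 2.67% at D15 and 2.52% at D21 (adjusted p = 0.00346, exact permutation test), and passed in all 16 settings run. The Krebs cycle class had means of 2.95%, 2.85% and 2.76% and chaperones of 1.38%, 1.29% and 1.29% (adjusted p = 0.0289 for each, exact permutation test). These calls were fragile, since the Krebs cycle class passed in 5 and the chaperones in 6 of these 16 settings, and 1 class passed in place of 3 without D10 replicate 1, 2 or 3, D15 replicate 1, or D21 replicate 1, 3 or 4. Mitochondrially encoded genes had 6.55%, 6.66% and 5.56% (adjusted p = 0.1004, exact permutation test) and the natriuretic peptides 0.0366%, 0.0819% and 0.103% (adjusted p = 0.0814, exact permutation test). Without D15 replicate 4 the D15 share of natriuretic peptides was 0.0985% ± 0.0076 (SD, n = 3) and the class passed (adjusted p = 0.0242, exact permutation test). That heart was set apart for its low atrial genes, among them Nppa of this class, so this pass is no independent result. The class passed in 1 of 16 settings.

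How much hearts of 1 day differed was measured by the pooled within-day SD of log2(CPM + 1), over 4 hearts on each of 3 days, for the 11318 genes whose mean reached 5 CPM. The median gene had an SD of 0.10, and counting alone would give a median of 0.055. An SD of at least 0.5, at which a typical heart lies 1.41-fold from its day's mean, was reached by 121 genes, or 1.07%. Just inside this limit lay the lysosomal protease gene Ctss with 0.504 and just outside it the platelet integrin gene Itga2b with 0.499. Without D15 replicate 4 the number was 98, and it ranged from 98 to 131 over the omission of each heart.

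Variable genes recurred between days. Of the 100 most variable genes of 1 day, 75 to 95 were among the most variable 10% of genes on another day (mean 84.3%), and 298 genes were in this 10% on all 3 days. In the 4 EAM hearts of D10, 65 to 79 of each 100 were also in the most variable 10%. The share of variable genes was 2.78% at 5 to 10 CPM, 0.556% at 20 to 50 CPM and 1.97% at 500 CPM or more. Pseudogenes gave 25 of the 121 (9.12% of 274 pseudogenes) and the mitochondrial genome 6 (of 28 genes). Protein-coding genes outside the mitochondrial genome gave 89 of 10831, or 0.822%.

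**Figure D3:**
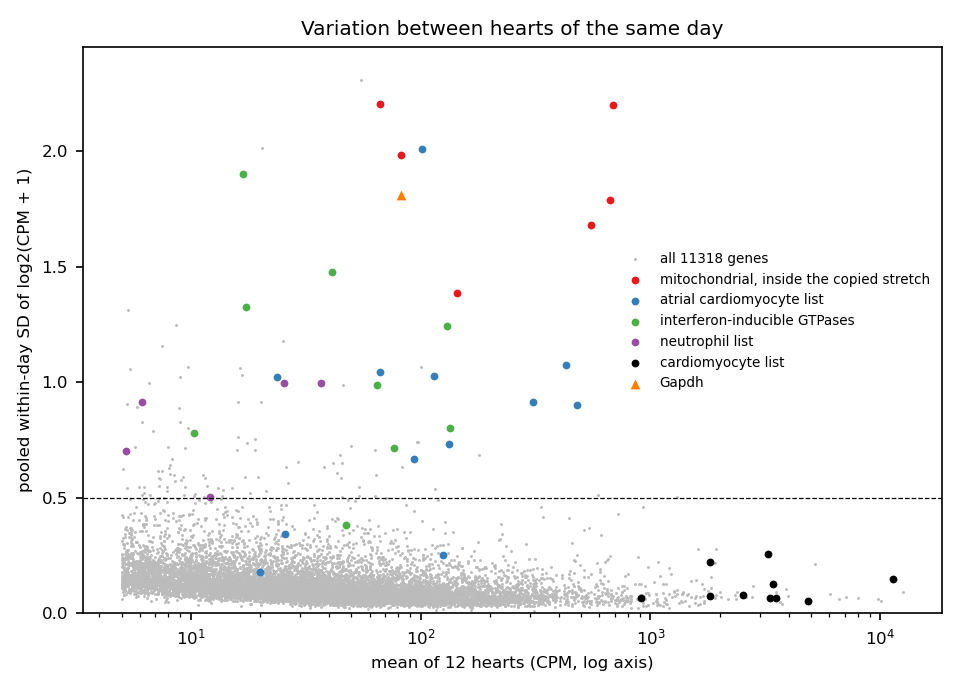
Variation between hearts of the same day against abundance. The horizontal axis is the mean of 12 hearts in CPM on a log scale, the vertical axis the pooled within-day SD of log2(CPM + 1), each point a gene and the dashed line the limit of 0.5. The 6 mitochondrial genes inside the stretch copied on chromosome 1, 9 of 12 atrial genes (0 without D15 replicate 4), 5 neutrophil genes and Gapdh lie above the line, as do 8 of the GTPases, which were mostly named for their variation, and the 10 cardiomyocyte genes lie below 0.3.

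Abundant muscle genes of the cardiomyocyte and ventricular lists, and Atp2a2 and Mb, stayed below the limit of 0.5, though not all were steadier than the median gene. Atrial genes such as Nppa (430 CPM, SD 1.07) did not. The within-day SD was 0.15 for Myh6, 0.06 for Atp2a2, 0.06 for Pln, 0.07 for Mb and 0.26 for Ttn, and none of the 10 cardiomyocyte or 5 ventricular genes reached the limit. Among genes of at least 50 CPM the steadiest was the splicing factor gene Prpf19, at 308 to 316 CPM with an SD of 0.0103. The mitochondrial genes Pmpca, Abcb8, Sucla2, Acadm and Ndufs1 were among the 10 steadiest, with SDs of 0.0156 to 0.0249.

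Genes often used as references differed among themselves. Succinate dehydrogenase subunit A (Sdha) lay at 1393 to 1561 CPM with an SD of 0.03, Ipo8 and Ywhaz had SDs of 0.06 and 0.06, and Actb had 0.16. Gapdh, a glycolytic enzyme gene, had the 8th largest SD of all 11318 genes, 1.81. Its level in replicates 1 to 4 was 43.1, 13.3, 94.2 and 31.7 CPM at D10, 110.2, 7.75, 72.3 and 216 at D15 and 21.8, 9.04, 177 and 188 at D21. High and low hearts occurred on each day, and the other abundant glycolytic genes did not share this, with an SD of 0.06 for Aldoa, 0.08 for Eno3 and 0.07 for Pkm. Gapdh is known for many processed pseudogenes, and reads that mapped to several places were kept apart from the gene counts, so its level is uncertain. The transferrin receptor gene Tfrc was the other variable reference gene, at 71.2 to 288 CPM (SD 0.69).

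The 6 variable mitochondrial genes lie next to each other. Their genes, mt-Co2, mt-Atp8, mt-Atp6, mt-Co3, mt-Nd3 and mt-Nd4l, span chrM:7013-10173, a stretch that is also present as a copy on chromosome 1, chr1:24611535-24616197 on the minus strand (GENCODE M21, GRCm38), where it is annotated as pseudogenes. The windows below are shown because they hold the 2 differences found between the mitochondrial genes and this copy. Capitals mark the base that differs and positions count from 1 at the start of the mitochondrial gene. The substitution is T3C in mt-Nd3 (chrM:9459-9518, plus strand) against Gm28438 (chr1:24613060-24613119, minus strand), and A1066T in mt-Co1 (chrM:6391-6450, plus strand) against Gm29216 (chr1:24616128-24616187, minus strand).
mt-Nd3: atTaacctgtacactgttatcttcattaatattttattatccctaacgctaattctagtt
Gm28438: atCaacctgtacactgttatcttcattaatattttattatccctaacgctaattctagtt
mt-Co1: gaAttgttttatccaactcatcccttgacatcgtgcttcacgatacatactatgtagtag
Gm29216: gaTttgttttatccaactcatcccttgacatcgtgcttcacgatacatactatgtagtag

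In the other pairs every aligned base was identical. This held for 681 bases of mt-Co2, 678 of mt-Atp6, 783 of mt-Co3, 294 of mt-Nd4l and 876 of mt-Nd4, and for 43 of the 204 bases of mt-Atp8 that overlap a pseudogene. mt-Nd4 (1378 bases, 876 of them aligned) and mt-Co1 (1545 bases, 483 aligned) reach beyond the copy at either end.

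The level of mt-Co3, a core subunit of cytochrome c oxidase, was 31.5, 538, 648 and 2288 CPM at D10, 81, 525, 2691 and 813 at D15 and 42.7, 463, 137 and 25 at D21 in replicates 1 to 4. Its lowest and highest heart differed by over 2 orders of magnitude, and D10 replicate 4 and D15 replicate 3 were the highest. The ATP synthase subunit gene mt-Atp8 had 9.91, 59, 67.2 and 211 CPM at D10, 1.09, 58.5, 243 and 90.2 at D15 and 1.86, 38.1, 14.8 and 7.25 at D21. The NADH dehydrogenase subunit gene mt-Nd3 had 3.9, 63.2, 59.7 and 275 CPM at D10, 20.2, 72, 326 and 94.4 at D15 and 2.41, 45.3, 17.2 and 2.81 at D21. Both were highest in the same hearts as mt-Co3 and lowest in replicate 1 of each day. The same 2 hearts were highest for mt-Co2 (1837 and 1824 CPM), mt-Atp6 (2096 and 2545 CPM) and mt-Nd4l (418 and 542 CPM), and mt-Nd4 was highest there too, with 7125 and 7053 CPM. Genes outside the copied stretch stayed close to their means, with SDs of 0.07 for mt-Nd1, 0.06 for mt-Nd5 and 0.07 for mt-Cytb.

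The pseudogenes of the copy, which were named after their values were seen, also had reads. Gm28438, the copy of mt-Nd3, had 92.1 ± 10.6 CPM (77 to 116 CPM), and the others had means of 9.46 to 24.8 CPM. Gm29216 and Gm10222 were themselves among the 121 variable genes, with SDs of 0.55 and 0.54. Gm29216 was highest in D15 replicate 2 with 27.8 CPM. Gm10222 was highest in D10 replicate 4 with 26.2 CPM and had 6.86 CPM in D15 replicate 3. A read from an identical stretch matches both places and would be kept apart from the gene counts, so levels of these 6 genes are uncertain. What part this had in their variation was not tested.

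**Figure D4:**
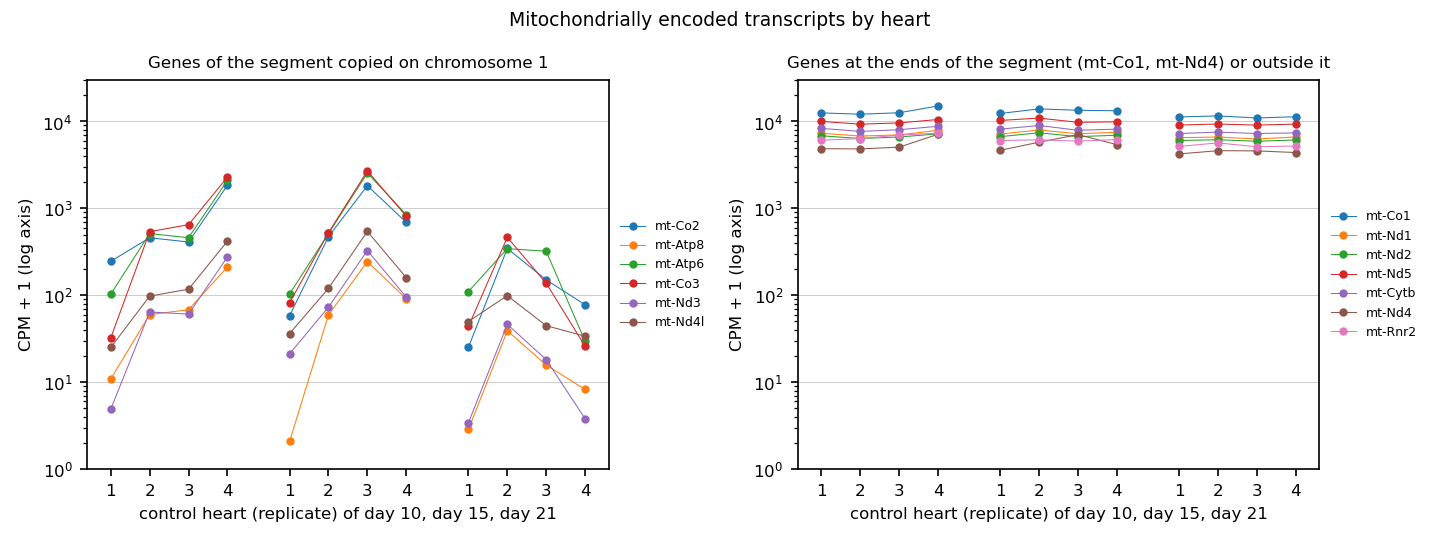
Mitochondrially encoded genes in each control heart. The vertical axes give CPM + 1 on a log scale, the horizontal axes the 4 replicates of each day, and lines only join the points of a gene. The 6 genes inside the copied stretch (left) move together over a wide range and the 7 at its ends or outside it (right) range less, mt-Nd4 from 4230 to 7125 CPM.

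Genes of atrial muscle cells differed widely between hearts. Of 12 atrial cardiomyocyte markers, 9 passed the limit, namely Bmp10, Nppa, Mybphl, Sln, Fgf12, Myl7, Myl4, Dkk3 and Stard10. The number was 0 without D15 replicate 4 and 9 without any 1 of the other hearts. Bmp10, a growth factor of the atrial wall, had 1.11, 0.148, 0 and 0.724 CPM at D10, 122, 153, 165 and 0.338 at D15 and 217, 212, 246 and 99.9 at D21 in replicates 1 to 4. The 4 D10 hearts and D15 replicate 4 were at 1.11 CPM or less, and the other 7 hearts were at 99.9 CPM or more. Nppa, the gene of the atrial natriuretic peptide, had 134, 84.1, 53.7 and 69.8 CPM at D10, 566, 769, 676 and 57.9 at D15 and 633, 830.2, 732 and 552 at D21. Myl7, the atrial regulatory light chain, had 122, 68.5, 43.4 and 67.4 CPM at D10, 394, 501, 440.2 and 61.2 at D15 and 411, 592, 612 and 388 at D21. The atrial essential light chain Myl4 had 193, 112, 82.9 and 111 CPM at D10, 611, 792, 672 and 93.3 at D15 and 655, 873, 939 and 589.8 at D21. In each of these genes the same 5 hearts were low and did not overlap the other 7.

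The summed level of the 12 atrial markers was 380.2 to 724 CPM in the D10 hearts, 422 CPM in D15 replicate 4, 2452 to 3098 CPM in the other D15 hearts and 2307 to 3657 CPM at D21. Ventricular markers did not follow. Their sum was 3152 to 3617 CPM over all 12 hearts, and Myl2 lay at 1731 to 2226 CPM and the ventricular transcription factor gene Irx4 at 45.6 to 54.6 CPM. The brain natriuretic peptide gene Nppb, which ventricular muscle also makes, lay at 261 to 379 CPM (SD 0.14). The same 5 hearts were also low in genes outside the atrial list, some of them chosen after their values were seen. Among these were the kinase genes Sbk2 and Sbk3, the hepcidin gene Hamp, the extracellular matrix genes Adamts8, Cilp2 and Podn, and the mesothelial gene Upk3b. Upk3b had 0.334, 1.38, 0.424 and 1.51 CPM at D10, 19.95, 13.3, 25.7 and 1.92 at D15 and 9.83, 12, 12.4 and 7.91 at D21. Car3, a gene of fat cells, was at most 17.1 CPM in these 5 hearts and at least 25.5 CPM in the other 7. The sources used here do not give the share of atrial tissue in each piece of heart, and its part in these values was not tested.

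Several interferon-inducible GTPases, which act against pathogens inside cells, were among the variable genes. They were mostly named for their variation, so their variation as a group is no result. Igtp, Iigp1, Gm4841, BC023105, F830016B08Rik and Gvin1 were among the genes named by rank or list. Irgm2, Gm12250 and the less variable Irgm1 were added after their values were seen, and Gm12250 is annotated as a processed pseudogene. Promoters were found for 4 of these 9 genes, in 300 bases from 250 before to 50 after the start in RefSeq GRCm38.p6. The 3 shown belong to neighbouring genes that moved together, and capitals mark 2 motifs searched on both strands, a pair of GAAA half-sites 2 bases apart, the core of an interferon-stimulated response element, and TTCNNNGAA, the core of a gamma-activated site. The windows are chr11:58199306-58199605 for Igtp, chr11:58214727-58215026 for Irgm2 and chr11:58183593-58183892 for Gm12250, all on the plus strand. Irgm2 was counted over chr11:58199618-58222782, which starts just after the Igtp window and holds the Irgm2 window, so its counts may not be separate from those of Igtp. Gm12250 was counted over chr11:58187739-58189012, which lies beyond its window.
Igtp: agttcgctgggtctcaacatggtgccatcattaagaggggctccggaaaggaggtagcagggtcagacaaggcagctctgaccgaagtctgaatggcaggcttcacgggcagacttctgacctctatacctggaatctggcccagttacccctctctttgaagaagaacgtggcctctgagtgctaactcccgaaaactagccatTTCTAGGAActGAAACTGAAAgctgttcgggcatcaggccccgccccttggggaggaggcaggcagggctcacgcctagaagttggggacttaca
Irgm2: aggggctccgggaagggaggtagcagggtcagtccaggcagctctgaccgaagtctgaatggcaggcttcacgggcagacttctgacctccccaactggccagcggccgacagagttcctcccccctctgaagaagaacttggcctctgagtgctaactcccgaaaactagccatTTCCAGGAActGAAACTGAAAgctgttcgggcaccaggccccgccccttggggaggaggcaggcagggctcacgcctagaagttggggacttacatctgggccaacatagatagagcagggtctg
Gm12250: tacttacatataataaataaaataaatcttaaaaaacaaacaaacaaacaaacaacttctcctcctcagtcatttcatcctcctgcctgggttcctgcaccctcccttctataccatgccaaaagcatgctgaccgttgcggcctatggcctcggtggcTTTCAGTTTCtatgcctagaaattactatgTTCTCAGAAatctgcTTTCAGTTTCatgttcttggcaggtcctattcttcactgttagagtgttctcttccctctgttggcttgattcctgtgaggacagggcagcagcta

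The GAAA pair occurred in 3.44% of 32851 promoters of this length, TTCNNNGAA in 8.3% and both in 0.454%. All 3 windows shown held both. In Igtp and Irgm2 the second motif lay 2 bases before the first, both windows held a run of 61 identical bases further on with neither motif in it, and in Gm12250 the first motif was found on the opposite strand at 2 places. The fourth window, that of Irgm1, held the first motif at 2 overlapping places and not the second. A match is a description of the letters and no evidence of binding.

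Igtp had 57.5, 44.9, 41.2 and 17.1 CPM at D10, 109, 37.1, 16.3 and 59.5 at D15 and 34.1, 145, 55.9 and 155 at D21 in replicates 1 to 4. Irgm2 had 71.5, 57.3, 64 and 27.5 CPM at D10, 119, 55.1, 30.5 and 71.9 at D15 and 53.6, 141, 75.2 and 153 at D21. D21 replicates 2 and 4 and D15 replicate 1 were the highest, and D10 replicate 4 and D15 replicate 3 the lowest. F830016B08Rik had the widest absolute range, 54.4, 48.3, 40.1 and 20.03 CPM at D10, 303, 63.2, 21.9 and 120.1 at D15 and 52, 348, 124 and 374 at D21. BC023105 had 25.1, 12.5, 13.3 and 3.5 CPM at D10, 87.9, 18.4, 3.36 and 33.1 at D15 and 14.5, 118, 36.4 and 127 at D21. The same 5 hearts stood at the ends of all 4 genes, and Iigp1 (44.7 to 286 CPM) and Gm4841 (1.81 to 54.8 CPM) were likewise highest in D21 replicate 4. Gvin1 followed another order. It had 2.56, 0.940, 4.29 and 2.41 CPM at D10, 1.29, 55.6, 1.6 and 33.4 at D15 and 3.96, 3.56, 3.5 and 89.9 at D21, so that 3 hearts were high and the rest below 5 CPM. Gbp2, another interferon-stimulated gene, moved less, with 29 to 42.8 CPM (SD 0.18), and 2 of the 15 genes of that list with at least 5 CPM were variable.

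Genes of neutrophils and of the acute phase were further variable groups. All 5 neutrophil genes with at least 5 CPM passed the limit, namely S100a9, S100a8, Retnlg, Cxcr2 and Csf3r. Retnlg had means of 11.99, 3.195 and 3.173 CPM at D10, D15 and D21, and Cxcr2 of 10.17, 2.902 and 2.541 CPM. Both reached a mean of 5 CPM only through the D10 hearts. Without D10 replicate 3 both fell below 5 CPM, and the 3 genes still at that level all passed the limit. S100a9, a subunit of calprotectin, had 63.2, 66.3, 93.7 and 48.8 CPM at D10, 5.79, 33.1, 21.2 and 18 at D15 and 40.3, 13.6, 4.29 and 34 at D21 in replicates 1 to 4, and its partner S100a8 had 46.3, 45.2, 68.5 and 29.5 CPM at D10, 4.5, 22.2, 13.5 and 12.7 at D15 and 27.2, 9.14, 2.41 and 23.6 at D21. All D10 hearts were above all D15 and D21 hearts in both genes. D15 replicate 1 and D21 replicate 3 were the lowest of their days, as they were for the granule genes Ngp and Ltf, which were chosen after their values were seen. Of the 7 neutrophil genes, 0 passed the gene by gene test at D15 or D21 against D10. Their summed level was 119 to 232 CPM at D10, 16.7 to 79.8 CPM at D15 and 11.9 to 95.2 CPM at D21.

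Of the acute phase list, Saa3, Lcn2, Serpina3n and C3 were variable, and 1 of them, Lcn2, without D10 replicate 4. Serum amyloid A3 (Saa3) had 40.8, 36.6, 18.5 and 0.724 CPM at D10, 0.724, 1.09, 1.2 and 0.789 at D15 and 0.702, 0.797, 0.350 and 0.817 at D21, and was high in 3 of 4 D10 hearts and at 0.350 to 1.20 CPM in the other 9. Serpina3n, a secreted protease inhibitor, had 138, 159, 195 and 41.3 CPM at D10, 15.9, 35.3, 38.68 and 33.8 at D15 and 28.7, 26.6, 15.8 and 31.4 at D21. The chemokine genes Ccl2 (2.48 to 17.5 CPM), Ccl7 (2.54 to 22.4 CPM) and Cxcl1 (2.59 to 17.3 CPM) also had their highest values in D10 replicate 1. The lysosomal gene Gpnmb had 26.0 CPM in D10 replicate 1, 19.04 CPM in D15 replicate 3 and 1.21 to 2.76 CPM in the other 10 hearts. Of the 4 haemoglobin genes with at least 5 CPM, Hba-a2 passed the limit, at 6.999 to 28.9 CPM (SD 0.52), but not without D15 replicate 1, D21 replicate 1 or D21 replicate 3. Hba-a1 had an SD just under it, 0.498, and Hbb-bs lay at 47.2 to 149 CPM (SD 0.40).

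**Figure D5:**
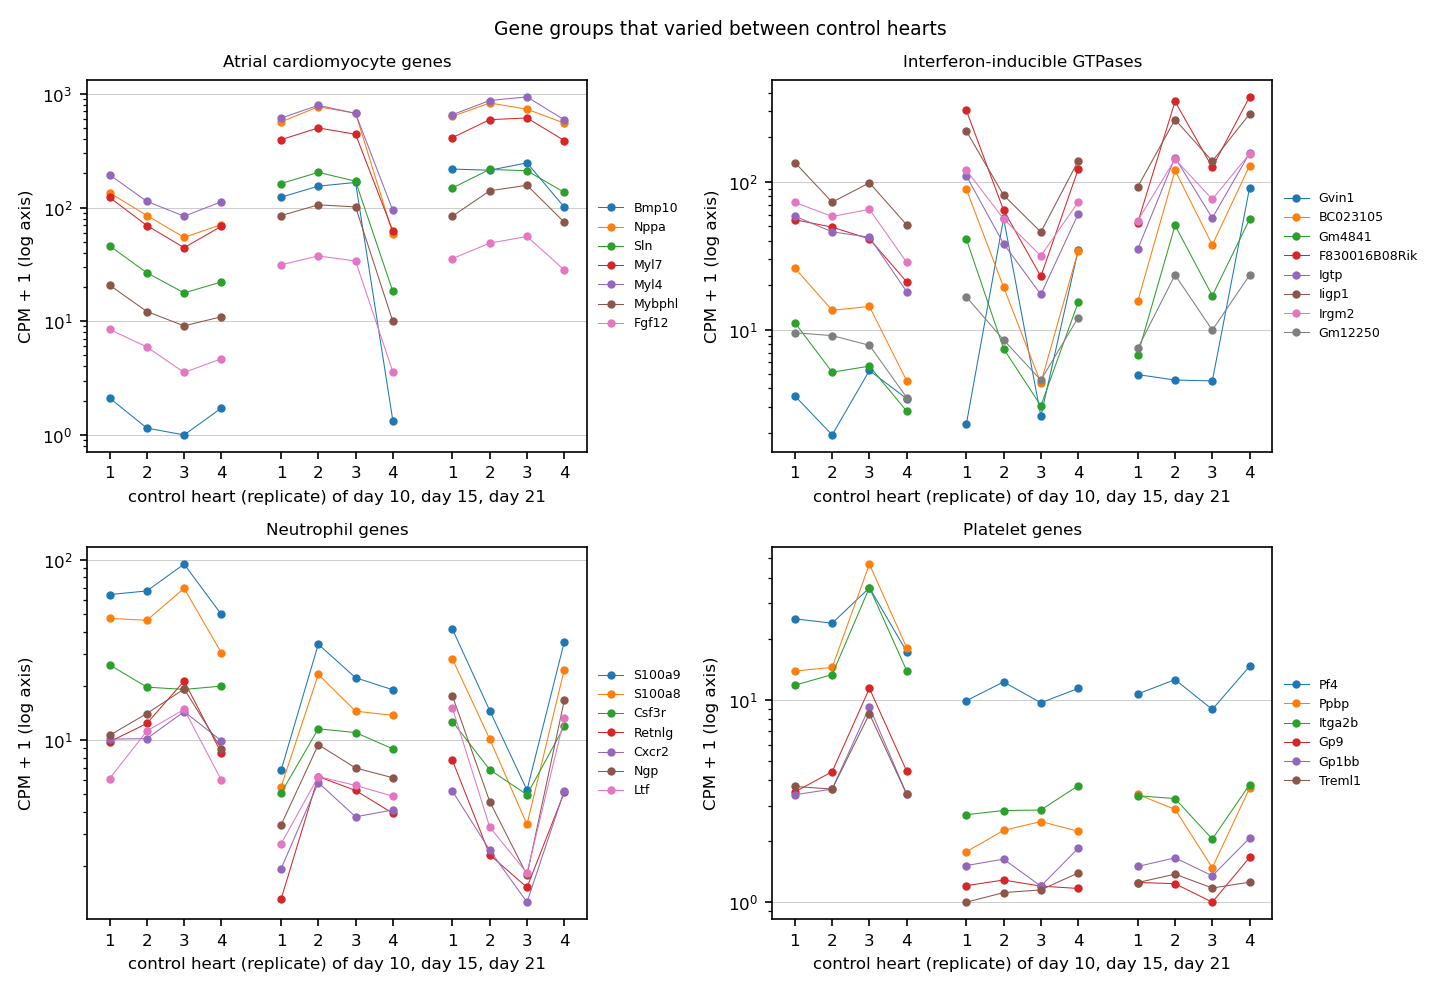
Atrial, GTPase, neutrophil and platelet genes in each control heart. The vertical axes give CPM + 1 on a log scale, the horizontal axes the 4 replicates of each day, and lines only join the points of a gene. Atrial genes are low in all D10 hearts and D15 replicate 4, Igtp and Irgm2 have high and low hearts on each day, and S100a8, S100a9 and the platelet genes are highest at D10.

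Some genes that answer to glucocorticoids, feeding and the time of day also differed between hearts. In the glucocorticoid-responsive list 5 of 12 genes were variable, Lcn2, Angptl4, Per1, Mt2 and Cdkn1a, and 3 without D15 replicate 1. Per1, which is also a clock gene, had 41.1, 64.4, 81.5 and 81.1 CPM at D10, 14.6, 45.9, 61.9 and 69.9 at D15 and 43, 17.5, 32.7 and 46.3 at D21 in replicates 1 to 4. Ddit4, a stress-induced inhibitor of mTORC1, had 63, 141, 168 and 104 CPM at D10, 33.9, 85.3, 119.8 and 166 at D15 and 44.1, 56.4, 66.1 and 113 at D21. In Ddit4 replicate 1 was the lowest heart of each day. Of the Per and Dbp phase clock genes 3 of 10 with at least 5 CPM were variable (Per1, Per2 and Dbp), and 1 without D21 replicate 1, and of the 5 Bmal1-phase clock genes 0 were. The clock output gene Dbp lay at 21.8 to 87.2 CPM (SD 0.65) and Per2 at 2.69 to 21.1 CPM. Of 10 genes of fasting and PPAR alpha 2 were variable, Angptl4 and Ucp3. Pdk4, the kinase that turns down pyruvate dehydrogenase in fasting, stayed below the limit, at 483 to 1410.3 CPM (SD 0.46), and Ucp3 lay at 18.4 to 88.6 CPM (SD 0.68). The mice had free access to food, and the sources used here do not give the hour of sampling.

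A few genes were set apart by 1 to 3 hearts. The pseudogene Gm12033 had the largest SD of all, 2.31, with 42.9 to 92.5 CPM in 9 hearts and 0.676, 2.06 and 0.868 CPM in D15 replicate 4, D21 replicate 3 and D21 replicate 4. Gm2606 had 235 CPM in D21 replicate 3, 7.40 CPM in D21 replicate 4 and 0.207 to 0.507 CPM elsewhere. The pseudogene Rps27a-ps2 had 0.689 CPM in D15 replicate 2 and 8.47 to 46.4 CPM elsewhere. Mageh1, a gene of the MAGE family that was chosen after its values were seen, had 0 reads in D21 replicate 4 and 7.90 to 13.0 CPM in the other 11 hearts. Pseudogenes can share reads with their parent genes, so their levels are uncertain.

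The score of a list of marker genes, its mean log2(CPM + 1), was compared between days for 43 lists in the same way as the class shares. It differed for 8 lists by the exact permutation test. Smooth muscle and pericyte genes had mean scores of 6.99, 7.21 and 7.37 on the 3 days in order (adjusted exact permutation p = 0.00745) and passed in all 17 settings run. Mast cell genes had 1.19, 1.32 and 1.43 (adjusted exact permutation p = 0.0112) and passed in 16. Of these 7 genes only Kit (14.7 CPM) had a mean of at least 5 CPM. The others had means of 0.0733 to 1.78 CPM, so most of this list lay near the floor. Platelet genes had 3.29, 1.21 and 1.32 and passed in 15, conduction system genes 2.48, 2.70 and 2.98 in 14, valve genes 1.51, 1.72 and 1.98 in 12, and glucocorticoid-responsive genes 6.43, 5.69 and 5.52 in 12 (adjusted exact permutation p = 0.0273 for each). Endocardial genes had 5.48, 5.82 and 6.15 and passed in 11, and immediate early genes 4.18, 3.90 and 4.17 and passed in 10 (adjusted exact permutation p = 0.0344 for each). The endocardial gene Npr3 was at 30.9 to 41.9 CPM in the D10 hearts and 37.1 CPM in D15 replicate 4, the hearts low in atrial genes, and at 67.98 CPM or more in the other 7. Plvap, also of that list, and Cilp2 and Cpne5 of the valve and conduction lists were lowest in the same 5 hearts, and the part of the atrial difference in these scores was not tested. The immediate early score was lowest at D15, and its difference between D21 and D10 changed sign under 4 settings. The number of lists was 3 without D10 replicate 2 or D21 replicate 3, 4 without D10 replicate 3 or D21 replicate 4, 5 without D21 replicate 2 and 13 without D10 replicate 4. The lists were chosen with earlier results of these data known.

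Pairs of list scores were related within days. In all, 10 pairs, chosen with earlier results known, were compared by the deviations of hearts from their day's mean. In 3 pairs the relation passed an exact permutation test within days over 13824 pairings, with Benjamini-Hochberg adjustment over the 10. Bmal1-phase and Per-phase clock genes were opposed, with Pearson r = -0.87 and Spearman rho = -0.81 (adjusted exact permutation p = 0.048 and 0.091), and r = -0.70 without the 2 farthest hearts. Within the D10, D15 and D21 hearts r was -0.41, -0.89 and -0.96. Immediate early genes and heat shock genes gave r = -0.82 and rho = -0.71 (adjusted exact permutation p = 0.048 and 0.091), r = -0.67 without the 2 farthest hearts, and r = -0.96, -0.88 and -0.10 within the days. White and brown fat cell genes gave r = 0.71 and rho = 0.84 (adjusted exact permutation p = 0.048 and 0.040), r = 0.59 without the 2 farthest hearts, and r = 0.13, 0.63 and 0.98 within the days. These calls were fragile, since 2 pairs passed without D10 replicate 3, 1 without D21 replicate 4 and 0 without any 1 of the other 10 hearts.

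Days were then compared gene by gene with edgeR's quasi-likelihood test over 15311 genes, taking a Benjamini-Hochberg adjusted p under 0.01 and at least a 2-fold change. D15 and D21 are each compared with the same 4 D10 hearts, so the comparisons are not independent. At D15, 0 genes (0%) were higher than at D10 and 9 (0.0588%) were lower. Before adjustment 2600 genes had a p under 0.05, and DESeq2 called 57 higher and 84 lower. Without D15 replicate 4, 68 genes were higher and 14 lower. The lower count was 5 without D10 replicate 2, 14 without D10 replicate 3, 51 without D10 replicate 4 and 0 without D15 replicate 1, 2 or 3 or D21 replicate 1 or 2, and the higher count was 2 without D10 replicate 4.

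At D21, 93 genes (0.607%) were higher and 59 (0.385%) lower than at D10, together 0.993% of those tested. The counts rested on single hearts. Without D21 replicate 3 they were 0 higher and 1 lower, and without D10 replicate 3 they were 1 and 17. By DESeq2 they were 157 and 98 and by limma-voom 37 and 36. They were 128 and 54 without D15 replicate 4, 12 and 18 without D10 replicate 2, 33 and 23 without D21 replicate 1, and 42 and 32 without D21 replicate 2. Without D10 replicate 4 there were 42 higher genes and without D21 replicate 4 there were 38 lower genes. Between D21 and D15, 0 genes (0%) passed in either direction by edgeR's quasi-likelihood test or by any other tool run, with a smallest adjusted p of 0.289 and 1534 genes at an unadjusted p under 0.05.

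Platelet genes were the clearest group lower after D10. Ppbp, a chemokine precursor stored in platelet granules, had 12.9, 13.5, 45.8 and 17.1 CPM at D10, 0.775, 1.26, 1.5 and 1.24 at D15 and 2.41, 1.87, 0.481 and 2.65 at D21 in replicates 1 to 4. All D10 hearts were above all later hearts and D10 replicate 3 was the highest. Its log2 fold change was -4.24 (SE 0.52, adjusted p = 0.0051 by edgeR) at D15 and -3.67 (SE 0.48, adjusted p = 0.0030 by edgeR) at D21. The integrin gene Itga2b, which encodes the platelet fibrinogen receptor chain, had 10.8, 12.3, 34.9 and 12.9 CPM at D10, 1.71, 1.84, 1.85 and 2.76 at D15 and 2.36, 2.25, 1.05 and 2.81 at D21, with log2 fold changes of -3.15 (SE 0.41) and -3.14 (SE 0.40). Of the 6 platelet genes, 3 were lower at D15 (Ppbp, Itga2b and Treml1) and all 6 at D21, with Pf4, Gp9 and Gp1bb added. Their summed level was 54.5 to 141 CPM at D10, 12.1 to 15.8 CPM at D15 and 10.0 to 21.1 CPM at D21. Socs3, a feedback inhibitor of cytokine signalling, fell by 1.49 (SE 0.18) on the log2 scale at D15.

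Of the cell type lists, the atrial one held the most genes higher at D21. Of the 12 atrial genes 10 passed, all upward, and 0 passed at D15, where D15 replicate 4 was low. Bmp10 had a log2 fold change of 8.59 (SE 1.26, adjusted p = 0.0033 by edgeR), a size that depends on the prior count since D10 replicate 3 had 0 reads and D10 replicate 2 had 0.148 CPM. Mybphl, a myosin binding protein gene, rose by 3.16 (SE 0.56) on the log2 scale, and Mlana and Tmem163 by 4.10 (SE 0.71) and 3.93 (SE 0.64). Epicardial and mesothelial genes rose as well, in 4 of 9 (Upk3b, Lrrn4, Msln and Bnc1), with 3.47 (SE 0.68) for Upk3b, which was called in 11 of 21 settings. The scores of the atrial and of the epicardial list did not pass between days (adjusted exact permutation p = 0.0565 for each), and passed in 1 and 3 of 17 settings. Of 100 contractile genes 5 were higher, Myl4, Myl7, Mybphl, Myl9 and Tpm2, and 0 lower, and the median log2 fold change of the class was 0.052 beside 0.00087 for all genes tested.

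Among the genes lower at D21 than at D10 were also the metallothionein genes Mt1 and Mt2. Mt2, which binds zinc and is induced by glucocorticoids, had 59.8, 71.7, 60.5 and 19.1 CPM at D10, 8.79, 14.5, 20.5 and 19.4 at D15 and 9.08, 12.2, 5.29 and 9.9 at D21 and a log2 fold change of -2.58 (SE 0.37, adjusted p = 0.0030 by edgeR). D10 replicate 4 was within the range of the D15 hearts and above all D21 hearts. Mt1 and the transcription factor gene Zbtb16 also fell, so that 3 of 12 glucocorticoid-responsive genes passed. Serpina3n fell by 2.43 (SE 0.39) on the log2 scale, and 2 genes of the acute phase list passed. In the fatty acid class, whose share of counts fell, 0 of 65 genes passed singly and the median log2 fold change was -0.22. The mitochondrial genome had 0 of 31 genes passing and a median of -0.31. In the extracellular matrix class 3 of 156 genes were higher and 1 lower, with a median of 0.18.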

How the data were processed

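RNA of 12 control hearts, 4 on each of 3 days, was read as counts per Ensembl gene. The authors prepared strand-specific polyA libraries, aligned read pairs to GRCm38 with HISAT2 2.0.4, removed duplicates with Picard, and deposited unnormalized featureCounts counts. Duplicate removal limits the counts of short, abundant genes. Reads that mapped to several loci or spanned several features were kept apart from the gene counts. The sources used here do not give the strand setting. Symbols, lengths and positions came from GENCODE M21. A symbol was found for 40340 of 41388 identifiers, and the rest took at most 0.0853% of a heart's counts. The 92 spike-ins had 0 reads.

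CPM is a count divided by the heart's gene total. Days were compared over all 12 hearts with edgeR 4.0.16 (TMM, at least 10 reads in at least 4 hearts, quasi-likelihood test) in R 4.3.3, with DESeq2 1.42.0 and limma 3.58.1 as alternatives. Permutation tests were two-sided and exact (scipy 1.17.1, pandas 2.3.3). Scripts were tested on simulated data. The 4 samples of a day came from 4 mice, so p-values set differences between days against the spread between animals. That spread may also hold differences in the piece of heart taken. Day and harvest cannot be told apart. Replicate numbers did not pair samples across days (0 to 3 of 4 correlations over 0.1), so no block was used.

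The hearts, gene lists and tests were chosen with earlier results of these data known. Genes named were the 30 highest in CPM, 15 highest per kilobase, 20 most variable by either of 2 measures, 10 steadiest, reference genes, leading or variable members of lists, and the 5 largest changes in each direction between days. Those added later are said to be so. The values of 3 genes that this rule names are not reported here.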

Additional observations from a re-analysis of the deposited data

Results flagged for a closer look

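In groups of 4 hearts, a heart stood far from the other 3 by Dixon's criterion in 23 of 267 groups looked at. Chance flags about 1 in 20 groups where values are independent and not selected. The groups here include genes named for their variation and lists that share members, so that rate is no yardstick for them. D15 replicate 4 accounted for 6 of the 23. Its score, the mean log2(CPM + 1) of a list, was the lowest for the atrial list (4.38, others 6.96 to 7.21), the endocardial list (5.44, others 5.90 to 5.97), the white fat cell list (3.35, others 4.34 to 4.45) and the fetal and stress list (7.82, others 8.26 to 8.34). It was the highest for the cardiomyocyte list (11.6, others 11.5) and for Rtl8b (80.5 CPM, others 23.4 to 24.9 CPM).

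At D10, replicate 1 was highest for the share of natriuretic peptides (0.0454%, others 0.0329% to 0.0346%), the dendritic cell score (1.96, others 1.65 to 1.70), the reference gene score (7.32, others 7.16 to 7.18) and Gpnmb (26.0 CPM, others 1.21 to 2.23 CPM). Replicate 2 was highest for the erythroid score (4.06, others 3.56 to 3.62) and replicate 3 for the platelet score (4.28, others 2.91 to 3.003). Replicate 4 was lowest for the acute phase score (3.48, others 4.54 to 4.70) and highest for mt-Co2 (1837 CPM, others 245 to 458 CPM).

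At D15, replicate 3 was highest for the liver score (0.733, others 0.422 to 0.460) and Gpnmb (19.04 CPM, others 1.40 to 1.72 CPM), and replicate 1 for Gm7331 (11.5 CPM, others 1.86 to 2.66 CPM). At D21, replicate 1 was lowest for the Bmal1-phase clock score (4.38, others 4.87 to 4.92). Replicate 2 was highest for the brown fat cell score (3.92, others 3.16 to 3.25) and lowest for collagens (7.24, others 7.67 to 7.73). Replicate 3 was highest for the conduction system score (3.19, others 2.88 to 2.93) and Gm2606 (235 CPM, others 0.328 to 7.40 CPM), and replicate 4 for Gvin1 (89.9 CPM, others 3.50 to 3.96 CPM). The causes were not tested.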

How the results depend on the processing

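Day comparisons depended on the test, the fold limit and single hearts, and the causes were not tested. At D15 against D10 the counts of 0 higher and 9 lower genes became 57 and 84 with DESeq2, 85 and 96 with the edgeR likelihood ratio test and 4 and 23 with no filter on low counts, and 0 lower genes passed with limma-voom or with only the 8 hearts of these days. Leaving out each heart gave 0 to 68 higher and 0 to 51 lower. At D21 against D10 the counts of 93 and 59 became 157 and 98 with DESeq2, 37 and 36 with limma-voom, 182 and 112 with the likelihood ratio test and 248 and 156 with no fold limit, and leaving out each heart gave 0 to 128 and 1 to 70. At D21 against D15 all settings gave 0 and 0.

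With a replicate block in the fit, which is no true pairing here, 2 higher and 17 lower genes passed at D15 and 108 and 50 at D21, 4 of 43 list scores in place of 8, and 1 of 10 pairs of lists in place of 3. The class shares gave 2 of 20 and the variable genes numbered 120 with the block.

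Leaving out each heart gave 1 to 4 classes, 3 to 13 lists, 0 to 2 pairs, 98 to 131 variable genes and 761 to 776 genes for 50% of counts. That number was 319 per kilobase and 902 without the mitochondrial genome in the total. With a mean of at least 1 CPM 188 genes were variable and with 20 CPM 53. With TMM-normalized CPM or a pseudocount of 0.1, 0 pairs of lists passed. The immediate early score, day 21 minus day 10, changed sign to 0.034 with a pseudocount of 0.1, 0.032 without D10 replicate 1, 0.0018 without D10 replicate 2 and 0.0054 without D21 replicate 4, within a range of -0.058 to 0.032 when each heart was left out. Of the other single values, 1845 kept their direction and side of the threshold, 159 lost and 22 gained a call, and 19 moved. The earlier form of the quasi-likelihood test and the limit to protein-coding genes were added after seeing the data. Depth limits genes near 3 reads.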
